A study of Homo sapiens with 12 samples.

Results

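Expression of 9 genes of the JAK-STAT pathway and its inhibitors was followed across 6 conditions, with 2 RNA-Seq libraries each. The genes were the kinases JAK1, JAK2 and JAK3, the transcription factors STAT3, STAT5A and STAT6, the inhibitors SOCS1 and SOCS3, and the phosphatase gene PTPN1. They were taken by symbol from the gene table of 26210 genes, and each of the 9 was present in it. Classical Hodgkin lymphoma (cHL) was represented by the cell lines L428, L1236 and KM-H2. These grow from Hodgkin/Reed-Sternberg (HRS) cells, the malignant cells of cHL, which come from B cells but have lost most B-cell gene expression. The untreated controls were Reh, a B-cell precursor leukaemia line, and Namalwa, a Burkitt lymphoma line. The sixth condition, Reh+PMA, was Reh treated with phorbol myristate acetate (PMA) at 2 ng/ml, for a time that the labels do not give. PMA activates protein kinase C and is used to switch on inducible transcription factors. Total RNA was depleted of ribosomal RNA before sequencing. The labels give no introduced gene or deletion for any line. Each line descends from 1 tumour, so the 2 libraries of a line are not separate tumours, and the contrast of cHL with controls rests on 3 lines against 2.

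Janus kinases (JAKs) sit on the cytoplasmic tails of cytokine receptors. Once a cytokine joins the receptor chains, the kinases phosphorylate each other and the receptor, and STAT proteins that dock there are phosphorylated, pair and enter the nucleus to activate target genes. Among these targets are the SOCS genes and CISH, whose products block the kinases or send them for degradation, which closes a negative feedback loop. PTP1B, the product of PTPN1, removes phosphate from JAK2, TYK2 and STAT6. In cHL the pathway is known for gains of the JAK2 region on 9p24 and for inactivating lesions of SOCS1 and PTPN1. DNA copy number, mutations and protein phosphorylation were not measured in these libraries, so the values describe transcript levels.

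Levels were given as FPKM, fragments scaled by the length of the transcript and by the mapped fragments of the library, a unit that can be compared between genes. Differences were taken between mean log2(FPKM + 1) values, a scale that understates changes of low genes. A gene was called higher or lower when limma gave an adjusted p below 0.05 and the difference was at least 1. Of the 26210 genes, 14679 reached 1 FPKM in at least 2 libraries and were tested, including all 9 members. The 9 genes and the gene lists below were chosen with earlier results of these data known. Their counts beside the shares over all genes are therefore descriptions. The summed FPKM ranged from 659355 to 1124620 per library, and 10835 to 12115 genes reached 1 FPKM. Read depth could not be derived: the lowest values above 0 lay between 2.89e-07 and 6.88e-06 FPKM, far below the worth of a whole read. The 2 libraries of a group, numbered 0 and 1 in the file header, correlated at r of 0.969 to 0.985 in Reh, Reh+PMA and Namalwa and at 0.906 to 0.922 in the cHL lines (Pearson, across genes, log2 scale). In what follows each pair of values gives library 0 first. Nothing in the labels says that the 2 libraries came from separate cultures, so p-values measure a spread that may be technical. In such bulk libraries the share of cells that express a gene and its level per cell cannot be told apart.

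The lines fitted their labels in most respects. All 8 pan-B-cell genes examined were lower in the cHL lines than in the controls, with summed levels of 3.995 to 41.9 FPKM against 949 to 1465 FPKM. Of 6 cHL markers, 5 were higher, at 229 to 1655 FPKM summed against 2.65 to 17.6 FPKM. In Reh the B-cell precursor markers summed to 1111 to 1197 FPKM, with VPREB1 and CD34 listed at 0. In Namalwa all 5 germinal centre markers reached 1 FPKM and summed to 238 to 239 FPKM. Neither list was confined to its line. Germinal centre markers summed to 150 to 168 FPKM in Reh and 100 to 104 FPKM in L428. B-cell precursor markers summed to 128 to 136 FPKM in Namalwa, where VPREB1 measured 11.4 and 7.89 FPKM. All 7 genes of a PMA response list were higher in Reh+PMA than in Reh. That list, too, was chosen with earlier results of these data known, so the count is no separate check of the label. T-cell markers summed to 17.8 to 26.3 FPKM in KM-H2 and to at most 0.159 FPKM in every other group. In KM-H2 the sum came mainly from CD3D, at 13.5 and 22.5 FPKM, and CD3G, at 3.25 and 2.85 FPKM. CD2 measured 0.779 and 1.01 FPKM there, CD3E 0.197 and 0 FPKM, and CD28 was listed at 0 in both libraries. Myeloid markers summed to 11.1 to 16.7 FPKM in KM-H2, 0.838 to 6.23 FPKM in L428 and L1236, 28.5 to 34.9 FPKM in Reh, 19.5 to 19.8 FPKM in Reh+PMA and at most 0.538 FPKM in Namalwa. The part of these markers in the KM-H2 values below was not tested.

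Compared with the 4 untreated control libraries, 6 of the 9 genes were called higher in the 6 cHL libraries and 0 were called lower. Over all genes tested in this comparison 13.7% were called higher and 10.9% lower. STAT5A, SOCS1, SOCS3, JAK2, JAK3 and STAT3 were the genes called. The median difference of the 9 genes was 1.47 on the log2 scale, against 0.02 over all genes tested. For STAT3, STAT5A, SOCS1 and SOCS3 every cHL library lay above every control library. That separation was met by 4 of the 9 genes, while 9.50% of all genes tested had all cHL libraries above and 8.06% had all below. Line means were compared by exact permutation, with the two-sided p taken as 2 times the smaller tail. With 3 lines against 2 this permutation cannot go below p = 0.2. JAK2, STAT3, STAT5A, SOCS1 and SOCS3 reached that smallest value, JAK1 and JAK3 gave 0.4, and STAT6 and PTPN1 gave 0.6.

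**Figure D1:**
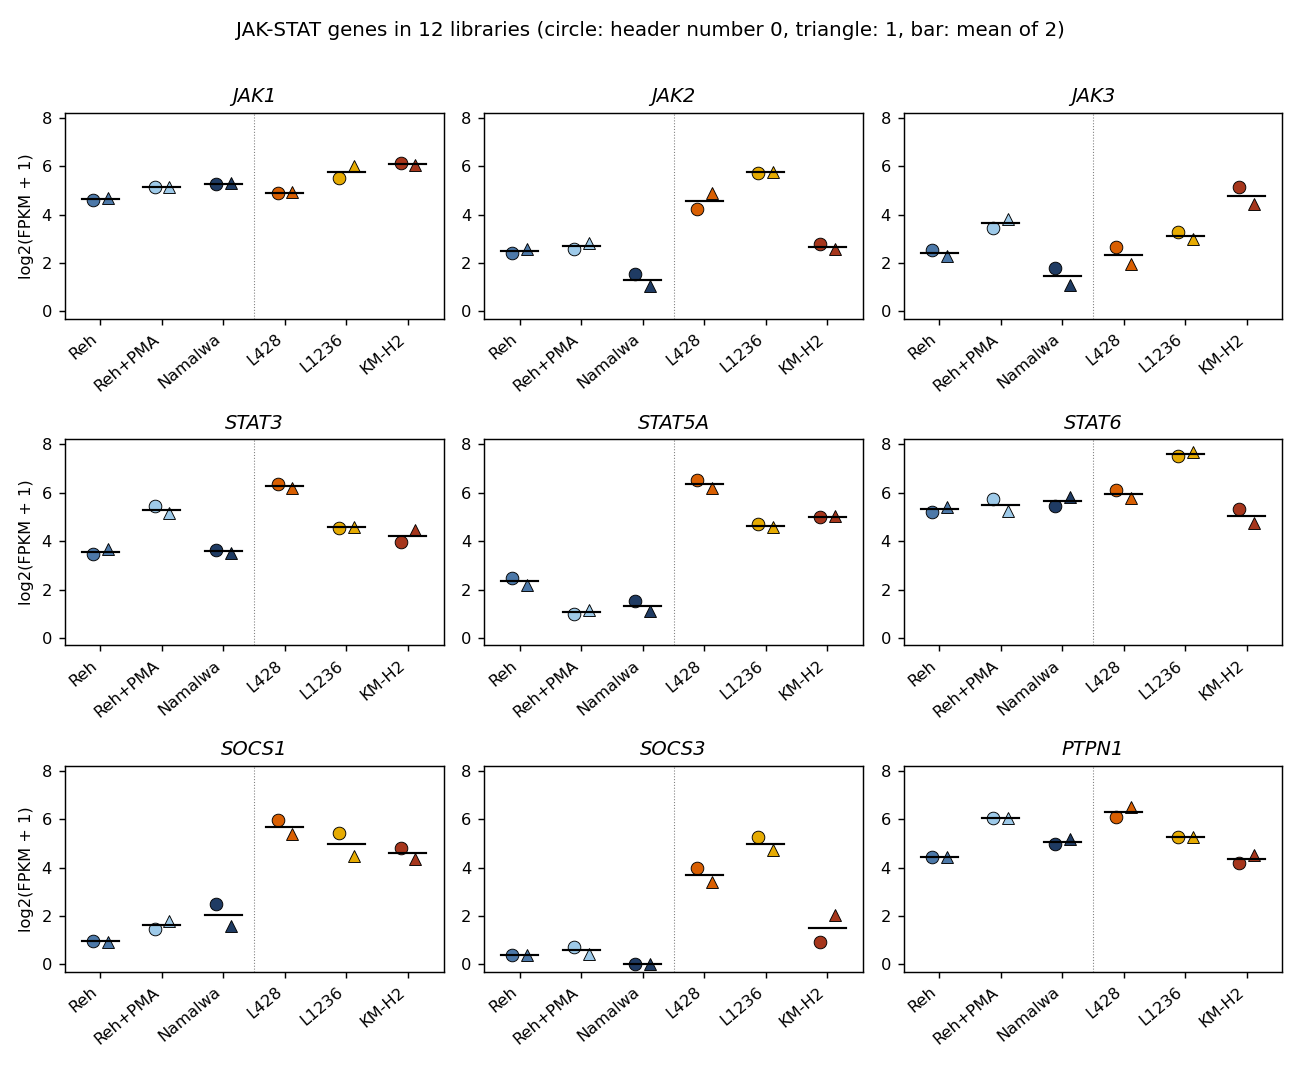
Level of each of the 9 genes in the 12 libraries, as log2(FPKM + 1); circles are libraries 0, triangles are libraries 1, and short bars are the means of the 2 libraries of a condition. The dotted line divides Reh, Reh+PMA and Namalwa from the cHL lines. STAT5A and SOCS1 sit in all 6 cHL libraries above every other library, whereas JAK2 does so in L428 and L1236 but not in KM-H2.

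The kinases showed different orders across the lines. JAK2, which serves receptors such as those of IL-3, GM-CSF and erythropoietin, measured 18.1 and 28.4 FPKM in L428, 52.4 and 53.1 FPKM in L1236, and 5.84 and 4.99 FPKM in KM-H2. Reh held 4.36 and 5.06 FPKM of JAK2, Reh+PMA 5.07 and 6.19 FPKM, and Namalwa 1.93 and 1.06 FPKM. L1236 and L428 were thus well above the rest, and KM-H2 overlapped Reh. The difference of cHL from controls was 2.43 ± 0.17 (SE; limma adjusted p = 2.96e-06), and it was 3.85 in L1236, 2.66 in L428 and 0.77 in KM-H2, the last under the fold required. With 0.1 instead of 1 added before the logarithm KM-H2 gave 1.02 and was called (adjusted p = 0.014). KM-H2 and Reh differed by 0.17 (adjusted p = 0.67), and the step from Reh down to Namalwa, 1.21, was called (adjusted p = 0.0051). Taken as Namalwa minus Reh, it was not called under quantile normalization (-0.96) or with 5 added before the logarithm (-0.58).

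JAK3 (chr19:17935589-17958880, minus strand of GRCh37), the kinase bound to the common gamma chain of the IL-2 receptor family, was highest in KM-H2. It measured 34.0 and 20.9 FPKM there, 8.64 and 7.0 FPKM in L1236 and 5.41 and 2.89 FPKM in L428. Reh held 4.84 and 3.96 FPKM of JAK3, Reh+PMA 10.0 and 13.1 FPKM, and Namalwa 2.51 and 1.16 FPKM. L428 overlapped Reh. The cHL difference was 1.47 ± 0.22 (adjusted p = 0.00048). Without KM-H2 it was 0.78 and no longer called, with Reh as the sole control line it was 0.99, and with 5 instead of 1 added before the logarithm it was 0.95, both under the fold.

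JAK1 (chr1:65298906-65533437, minus strand), the kinase shared by most cytokine receptors, had the highest mean of the 3 kinases in each condition, although in L1236 its library 0 lay below both JAK2 libraries. JAK1 measured 68.5 and 64.6 FPKM in KM-H2, 44.8 and 62.9 FPKM in L1236 and 28.6 and 29.6 FPKM in L428. It measured 23.1 and 24.9 FPKM in Reh, 34.5 and 34.2 FPKM in Reh+PMA and 37.5 and 38.4 FPKM in Namalwa. L428 lay below Namalwa, and the cHL difference of 0.62 ± 0.12 (adjusted p = 0.0020) was under the fold required. In KM-H2 alone the difference from controls was 1.12 and was called. TYK2, the fourth kinase of the family, gave a cHL difference of 0.95 ± 0.16, also just under the fold, with 38.2 to 75.6 FPKM in the cHL libraries and 21.2 to 28.5 FPKM in the controls.

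The make-up of the JAK family is given as shares of its summed level. The 4 kinases summed to 60.4 to 63.1 FPKM in the control libraries, 90.3 to 100.3 FPKM in L428, 159 to 174 FPKM in L1236 and 150 to 166 FPKM in KM-H2. JAK2 supplied 30.6 to 32.9% of that sum in L1236 and 20 to 28.3% in L428. Its share was 3.0 to 3.89% in KM-H2, 7.23 to 8.12% in Reh and 1.71 to 3.06% in Namalwa. JAK3 supplied 12.6 to 22.6% in KM-H2 and at most 6.0% in L428 and L1236. JAK1 supplied 28.1 to 36.2% in L1236 and 38.9 to 45.6% in KM-H2, and TYK2 supplied 29.2 to 33.5% and 27.8 to 45.5%.

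Among the transcription factors, STAT5A (chr17:40439565-40463961, plus strand), which acts downstream of IL-2 family, IL-3 and GM-CSF receptors, differed most. It measured 90.2 and 73.0 FPKM in L428, 25.0 and 23.0 FPKM in L1236 and 31.1 and 31.5 FPKM in KM-H2. Reh held 4.54 and 3.60 FPKM, Reh+PMA 0.959 and 1.21 FPKM, and Namalwa 1.90 and 1.15 FPKM. The lowest cHL library was thus at 23.0 FPKM and the highest control library at 4.54 FPKM. The cHL difference was 3.51 ± 0.14 (adjusted p = 1.23e-07), and each line was called on its own, at 4.53 in L428, 2.82 in L1236 and 3.18 in KM-H2. STAT5B, its close paralogue, lies beside it on the opposite strand with overlapping ends and gave 0.17 ± 0.11 (adjusted p = 0.22). Reads common to both genes may have been divided between them, so the split of STAT5A and STAT5B is uncertain.

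STAT3 (chr17:40465342-40540558, minus strand), the main effector of IL-6 and IL-10 family cytokines, measured 80.1 and 73.1 FPKM in L428, 22.6 and 23.0 FPKM in L1236 and 14.7 and 21.2 FPKM in KM-H2. Reh held 9.97 and 11.8 FPKM, Reh+PMA 42.7 and 34.4 FPKM, and Namalwa 11.4 and 10.5 FPKM. All 3 cHL lines lay above both untreated controls, with L428 far above the others. The cHL difference of 1.45 ± 0.14 (adjusted p = 2.06e-05) fell to 0.82 without L428 and was then not called. In L1236 alone it was 0.9985, just short of the fold, and it passed with 0.1 added before the logarithm (1.06) and under quantile normalization or median centring (1.01 and 1.02).

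STAT6 (chr12:57489191-57525922, minus strand), the effector of IL-4 and IL-13, was abundant in every condition and stood out in L1236. It measured 182 and 206 FPKM in L1236, 68.1 and 54.7 FPKM in L428 and 39.1 and 25.9 FPKM in KM-H2. Reh held 35.5 and 42.1 FPKM, Reh+PMA 52.3 and 36.6 FPKM, and Namalwa 43.2 and 56.0 FPKM. L1236 was the highest group, and the other 5 conditions formed an unbroken series of overlapping neighbours. The cHL difference was 0.72 ± 0.17 (adjusted p = 0.0066) and was not called, although L1236 alone differed from controls by 2.12. Without KM-H2 the difference of the remaining cHL lines was 1.3 and was called, and without L1236 it was 0.017 (adjusted p = 0.95).

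STAT2, STAT4 and STAT5B were measured beside the 3 STAT genes among the 9. STAT2, which acts in interferon signalling, was higher in cHL by 1.3 ± 0.28 and measured 17.5 to 50.6 FPKM in the cHL libraries against 10.3 to 16.2 FPKM in the controls. STAT4, the effector of IL-12, was higher by 2.64 ± 0.29 and measured 22.9 and 46.9 FPKM in L428, 0.318 and 1.24 FPKM in L1236 and 2.19 and 6.93 FPKM in KM-H2, while each control library was at or below 0.133 FPKM. In L1236 alone STAT4 was not called, at 0.69 (adjusted p = 0.18), against 4.99 in L428. With STAT3 and STAT5A, 4 of these 6 STAT genes were called higher and 0 lower, with a median difference of 1.38, against 13.7% and 10.9% called over all genes. Their summed level was 82.2 to 91.8 FPKM in the controls, 314 to 329 FPKM in L428, 266 to 317 FPKM in L1236 and 123 to 149.9 FPKM in KM-H2. STAT6 supplied 64.9 to 68.2% of this sum in L1236 and 17.4 to 20.7% in L428, where STAT3 and STAT5A each supplied at least 23.3%.

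**Figure D2:**
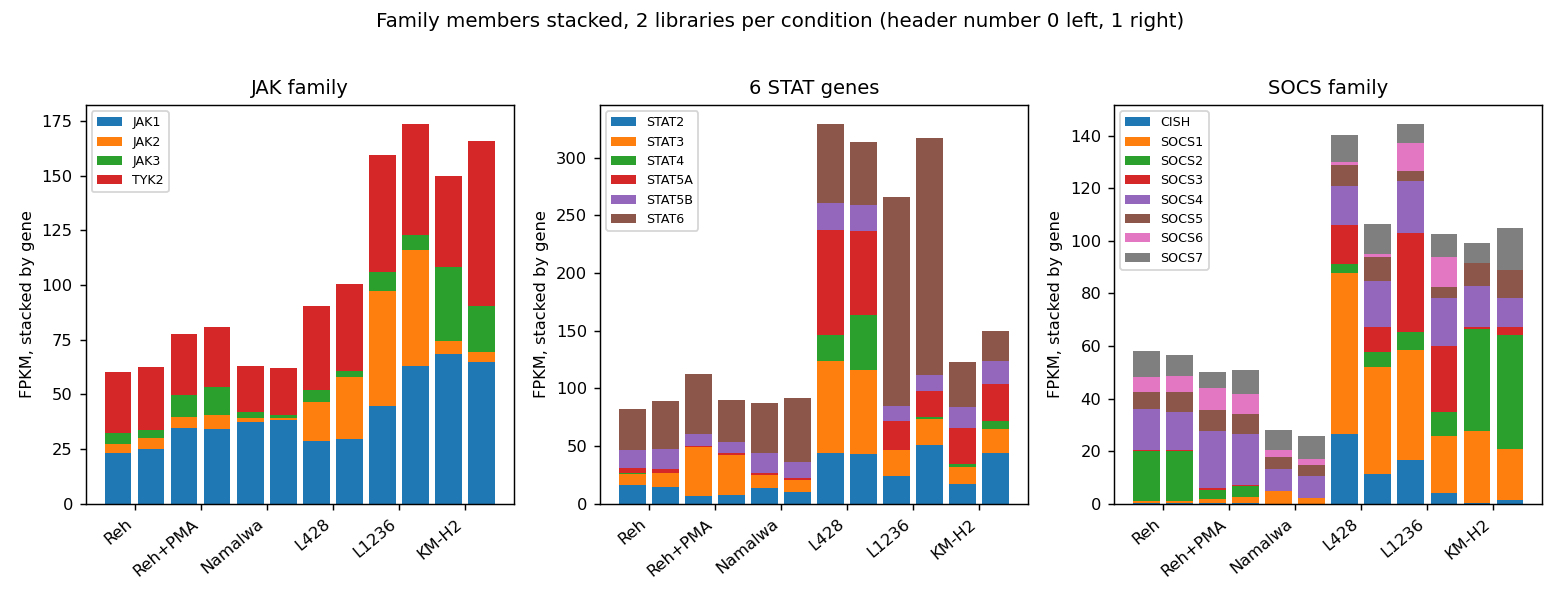
Summed FPKM of the JAK family, of 6 STAT genes and of the SOCS family in each library, stacked by gene; each bar is 1 library and the axes start at 0. JAK2 takes 30.6 to 32.9% of the JAK sum in L1236 and 3.0 to 3.89% in KM-H2, and the STAT sum of each cHL library exceeds that of each control library.

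SOCS1 (chr16:11348274-11350061, minus strand), which inhibits JAK1, JAK2 and TYK2 directly, was higher in all 3 cHL lines. It measured 61.2 and 40.7 FPKM in L428, 41.8 and 21.5 FPKM in L1236 and 27.4 and 19.7 FPKM in KM-H2. Reh held 0.978 and 0.906 FPKM, Reh+PMA 1.74 and 2.47 FPKM, and Namalwa 4.69 and 2.01 FPKM. Neighbouring cHL lines overlapped, and a gap separated them from the other conditions. The cHL difference was 3.57 ± 0.25 (adjusted p = 3.54e-06), with 4.17 in L428, 3.45 in L1236 and 3.10 in KM-H2. No pair of cHL lines was called different in SOCS1, although KM-H2 minus L428, at -1.07, passed the fold and narrowly missed the p required (limma adjusted p = 0.058). RMI2, which overlaps SOCS1 on the opposite strand, gave -0.43 ± 0.20 (adjusted p = 0.093). Whether the counting used strand is not given in the sources used here.

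SOCS3 (chr17:76352859-76356158, minus strand), which binds gp130-type receptors and inhibits their JAKs, followed another order. It measured 37.3 and 25.3 FPKM in L1236, 14.7 and 9.48 FPKM in L428 and 0.928 and 3.11 FPKM in KM-H2. Reh held 0.318 and 0.323 FPKM, Reh+PMA 0.656 and 0.358 FPKM, and both Namalwa libraries were listed at 0. The order L1236, L428, KM-H2 was called at both steps, at 1.31 and 2.19. The cHL difference was 3.19 ± 0.23 (adjusted p = 4.17e-06), and its size depends on the constant added before the logarithm, at 5.41 with 0.1 added and 1.65 with 5 added. KM-H2 exceeded the controls by 1.29, a call that rested on its library 1, since without that library the difference was 0.75 (adjusted p = 0.080), and it was lost with 5 added, at 0.43 (adjusted p = 0.084).

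CISH, a textbook STAT5 target and a SOCS family member outside the 9 genes, was likewise lowest in KM-H2 among the cHL lines. It measured 26.6 and 11.2 FPKM in L428, 16.5 and 4.10 FPKM in L1236 and 0.409 and 1.25 FPKM in KM-H2, against at most 0.107 FPKM in the controls. The cHL difference was 2.68 ± 0.35 (adjusted p = 0.00019), and KM-H2 alone gave 0.76, which was not called. Dimers of STAT proteins bind inverted repeats of the form TTCNNNGAA, and STAT6 prefers the form with 1 more base, TTCNNNNGAA. Both palindromic forms were searched in the 250 bases before each annotated start in the RefSeq promoter table (GRCh38.p14), in which all 9 genes were found. TTCNNNGAA occurred in 6.57% and TTCNNNNGAA in 5.38% of 35116 such windows. The CISH window held 4 matches to TTCNNNGAA. Of the 9 genes, only STAT5A held a match, 1 copy of TTCNNNNGAA in 1 of its 3 windows. The stretches below are given 5′ to 3′ on the strand of the gene with matches in capitals, located by an exact match in GRCh37, and SOCS1 is shown as an example without a match.
CISH, chr3:50649295-50649455, minus strand, bases -250 to -90 from the start: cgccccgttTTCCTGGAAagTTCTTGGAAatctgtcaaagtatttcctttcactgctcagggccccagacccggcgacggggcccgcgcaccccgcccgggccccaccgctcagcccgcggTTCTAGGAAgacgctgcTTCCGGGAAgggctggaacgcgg
STAT5A, chr17:40439207-40439307, plus strand, bases -250 to -150: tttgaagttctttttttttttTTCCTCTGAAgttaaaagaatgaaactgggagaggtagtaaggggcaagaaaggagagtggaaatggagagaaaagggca
SOCS1, chr16:11350062-11350211, minus strand, bases -150 to -1: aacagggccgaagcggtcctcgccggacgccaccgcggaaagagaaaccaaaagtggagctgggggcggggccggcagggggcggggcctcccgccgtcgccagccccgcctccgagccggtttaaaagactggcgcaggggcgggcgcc
A match is a stretch of letters and not a measured binding site, and the absence of one says only that these letters are not in the window.

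Of the 8 SOCS family genes, 4 were called higher in cHL (SOCS1, SOCS3, CISH and SOCS2) and 0 lower, against 13.7% and 10.9% over all genes. SOCS2 was highest in KM-H2, at 38.6 and 43.0 FPKM, and next in Reh, at 19.0 and 18.9 FPKM. It measured 0.0789 and 0.269 FPKM in Namalwa, so its cHL difference of 1.40 ± 0.16 mixed 2 unlike controls. SOCS1 supplied 38.3 to 43.7% of the family sum in L428, 21.0 to 29.0% in L1236 and 18.8 to 27.6% in KM-H2, against 1.60 to 1.68% in Reh and 7.84 to 16.7% in Namalwa. KM-H2 took 38.9 to 41.0% of its sum from SOCS2 and at most 2.96% from SOCS3.

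PTPN1 (chr20:49126858-49201778, plus strand) followed another order of conditions than either SOCS gene. It measured 67.2 and 89.9 FPKM in L428, 37.0 and 37.7 FPKM in L1236 and 17.2 and 21.9 FPKM in KM-H2. Reh held 20.7 FPKM in both libraries, Reh+PMA 65.5 and 66.0 FPKM, and Namalwa 30.4 and 34.8 FPKM. L428 and Reh+PMA were high, and KM-H2 overlapped Reh at the low end. The cHL difference of 0.55 ± 0.13 (adjusted p = 0.0052) was not called, while L428 alone was higher by 1.54. Without KM-H2 it was 1.02 and was called, and without L428 it was 0.052 (adjusted p = 0.78). Among 13 phosphatases and other negative regulators, including PTPN1, 1 was higher in cHL and 3 were lower, with a median of -0.30. Over all genes 13.7% were called higher and 10.9% lower. DUSP2, a phosphatase of MAP kinases, was higher by 2.04 ± 0.26, but its controls were unlike, being listed at 0 in both Reh libraries and at 11.4 and 26.6 FPKM in Namalwa, which overlapped the cHL libraries. PTPRC (CD45), PTPN6 (SHP-1) and SH2B3 (LNK), which each restrain JAK signalling in blood cells, fell by 2.77, 1.78 and 1.31. PTPN6 measured 15.7 and 12.6 FPKM in Reh and 4.81 and 3.83 FPKM in Namalwa. It was at or below 0.915 FPKM in L1236 and KM-H2 but at 8.63 and 6.76 FPKM in L428, which differed from the controls by -0.05 and was not called. SH2B3 was likewise not called in KM-H2, at 0.06. PTPRC stayed at 48.5 and 94.4 FPKM in L1236, where library 1 overlapped the controls, and was at or below 9.31 FPKM in L428 and KM-H2.

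**Figure D3:**
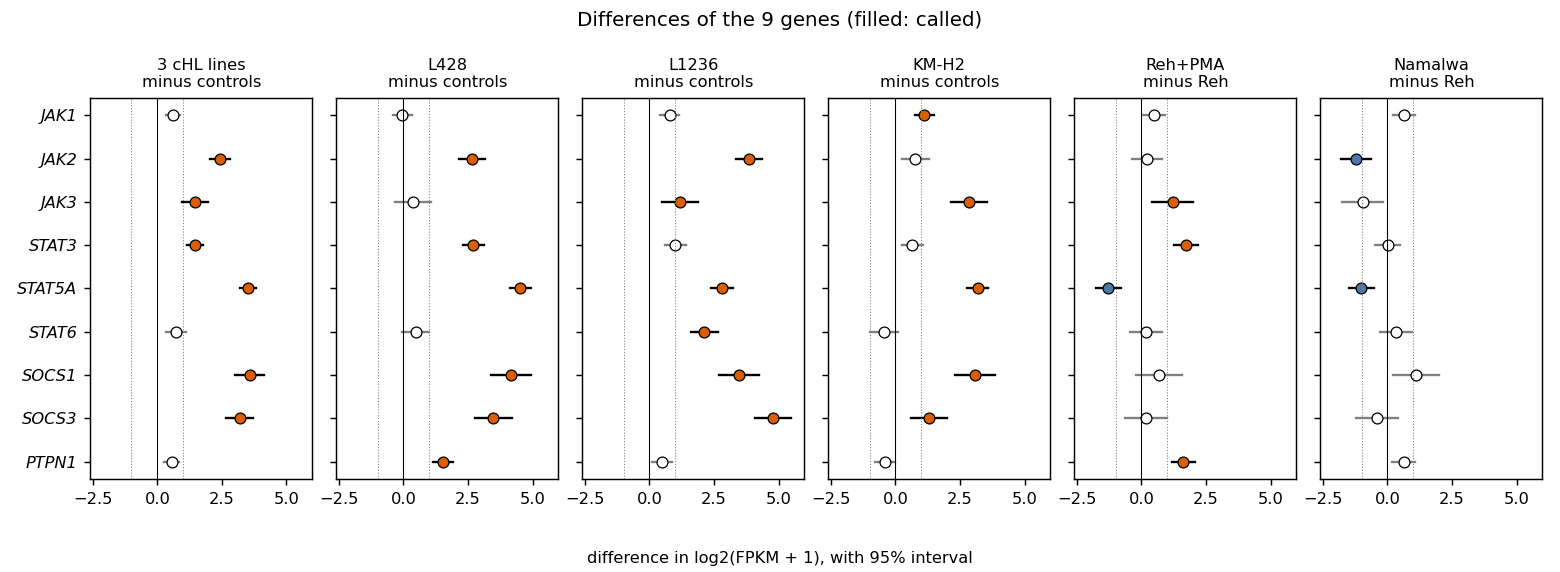
Difference in mean log2(FPKM + 1) of each gene between the 3 cHL lines together or each alone and the untreated controls, between Reh+PMA and Reh, and between Namalwa and Reh; points are estimates, bars are 95% confidence intervals from limma, filled points were called and dotted lines mark a difference of 1 in either direction. STAT5A, SOCS1 and SOCS3 are called in all 3 cHL lines, and STAT3 and PTPN1 are called in L428 and in Reh+PMA.

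Each cHL line had its own set of called genes, and some of the sets differ only through the thresholds. JAK1 was called in KM-H2 alone, but KM-H2 minus L1236 was 0.32 and not called (limma adjusted p = 0.21). JAK3 was called in L1236 and not in L428, but L1236 minus L428 was 0.81 and not called (adjusted p = 0.095). In L428 the 6 called genes were JAK2, STAT3, STAT5A, SOCS1, SOCS3 and PTPN1, in a comparison where 16.2% of all genes were called higher and 13.8% lower. In L1236 they were JAK2, JAK3, STAT5A, STAT6, SOCS1 and SOCS3, with 15.7% and 13.3% over all genes. In KM-H2 the 5 called genes were JAK1, JAK3, STAT5A, SOCS1 and SOCS3, with 16.8% and 13.5% over all genes. The JAK3 call in L1236, 1.19, was lost without its library 0 (1.05, adjusted p = 0.083) and with 5 added before the logarithm (0.68). STAT5A, SOCS1 and SOCS3 were shared by the 3 lines, although the SOCS3 call in KM-H2 was lost without its library 1, and 0 of the 9 genes were called lower in any. These 3 comparisons use the same control libraries, and the share of all genes called in all 3 lines was not computed. Differences between the cHL lines were tested directly, and 17 of the 27 gene-by-line-pair differences were called, against 25.3% of such differences over all genes. Over all 15 pairs of the 6 conditions, 76 of 135 tests of the 9 genes were called (56.3%), against 29.6% of such tests over all genes. Between the control lines, JAK2 and STAT5A were lower in Namalwa than in Reh by 1.21 and 1.02, in a comparison with 7.50% of genes called higher and 11.5% lower. Both calls were lost when Namalwa library 1 was left out, at -0.96 and -0.80, that of JAK2 also without Reh library 1 and that of STAT5A also without Reh library 0.

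PMA treatment of Reh moved 4 of the 9 genes: STAT3, PTPN1 and JAK3 rose and STAT5A fell. Over all genes tested, 10.5% were called higher and 11.8% lower. STAT3 rose by 1.73 ± 0.21 (adjusted p = 0.00046), from a mean of 10.9 to 38.5 FPKM, and its share of the sum of the 6 STAT genes went from 12.1 to 13.2% up to 38 to 38.1%. PTPN1 rose by 1.62 ± 0.20 (adjusted p = 0.00046), from a mean of 20.7 to 65.7 FPKM. JAK3 rose by 1.21 ± 0.35 (adjusted p = 0.027), and this call was lost when any 1 of the 4 libraries was left out, with adjusted p of 0.074 to 0.14. STAT5A fell by 1.28 ± 0.21 (adjusted p = 0.0024), from a mean of 4.07 to 1.08 FPKM. With 5 instead of 1 added before the logarithm the calls of STAT5A and JAK3 were lost, at -0.57 and 0.81. With 1 added, STAT5A is the one member called in opposite directions in Reh+PMA and in the cHL lines, and both comparisons use the Reh libraries.

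The other 5 genes were not called after PMA. SOCS1 differed by 0.67 (95% interval -0.22 to 1.56), SOCS3 by 0.18 (-0.63 to 1.00) and JAK2 by 0.21 (-0.38 to 0.80). JAK1 differed by 0.50 (0.08 to 0.92) and STAT6 by 0.18 (-0.43 to 0.79). For SOCS1, the highest Reh+PMA library, at 2.47 FPKM, was below the lowest cHL library, at 19.7 FPKM. TYK2, STAT2, STAT4 and STAT5B were not called either, at -0.03, -0.98, -0.04 and -0.70. SOCS2 fell by 2.12 ± 0.24, from 19.0 and 18.9 to 3.27 and 3.96 FPKM. Of the 13 phosphatases and other negative regulators, 3 rose after PMA and 0 fell, with 10.5% and 11.8% over all genes. Besides PTPN1 these were SH2B3 and PTPN6, which rose by 3.07 ± 0.24 and 1.32 ± 0.25. Both were called lower in cHL, and the share of all genes with this pair of calls was not computed.

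Upstream of the kinases, 28 cytokine genes were listed and 16 were tested. In cHL 8 were higher and 0 lower, with a median of 1.06, against 13.7% and 10.9% called and a median of 0.02 over all genes. EBI3, a subunit of IL-27 and IL-35, was higher by 5.28 ± 0.22 and reached 312 and 235 FPKM in KM-H2. CSF2, which encodes GM-CSF, was higher by 4.16 ± 0.34, at 21.6 to 91 FPKM in L428 and L1236 and 0.432 and 4.08 FPKM in KM-H2. IL6 was higher by 3.56 ± 0.24 and measured 42.7 and 60.9 FPKM in L1236. CSF2 and IL6 were listed at 0 in each control library, so these differences depend on the constant added before the logarithm. IL13, named here after its values were seen as a ligand that signals through STAT6, measured 13.4 and 19.7 FPKM in L428 and 0.238 to 0.745 FPKM in L1236 and KM-H2, and was listed at 0 in the other 6 libraries. IL4, which also signals through STAT6, measured 1.11 and 1.40 FPKM in L1236 and was listed at 0 in every other library. L1236 had the highest STAT6 but not the highest IL13, and whether the levels of ligand and STAT6 are linked was not tested. After PMA, IL11 rose by 2.40 ± 0.60 and EBI3 by 1.53 ± 0.34, while IL12A fell by 1.46. The 2 libraries of IL11 in Reh+PMA were far apart, at 12.2 and 1.42 FPKM.

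Of 36 cytokine receptor genes 24 were tested, and in cHL 12 were higher and 1 lower, against 13.7% and 10.9% over all genes, with a median of 0.98. IL13RA1, which forms the type II IL-4 and IL-13 receptor with IL4R, was higher by 5.62 ± 0.17, at 10.6 to 156 FPKM in the cHL libraries and at most 0.242 FPKM in the controls. IL21R was higher by 4.14 ± 0.33. IL5RA was higher by 3.55 ± 0.25 and spread unevenly, at 24.4 to 58.8 FPKM in L428 and L1236 and listed at 0 and at 1.07 FPKM in KM-H2. IL7R, the receptor of the pre-B-cell growth factor IL-7, fell by 4.91, but its controls were unlike, at 146 and 183 FPKM in Reh and 6.11 and 4.54 FPKM in Namalwa. After PMA 5 of the 24 receptor genes rose and 2 fell, with 10.5% and 11.8% over all genes. IL2RG, the common gamma chain that binds JAK3, rose by 2.64 ± 0.31 from 29.3 and 26.5 to 215 and 148 FPKM. IFNGR1, IL27RA, IL4R and IL21R rose by 2.57, 2.41, 2.32 and 1.5, and IL7R and IL12RB1 fell by 3.10 and 1.59. IL2RG, IL4R and IL21R were called higher and IL7R lower in both comparisons, which share the Reh libraries. The share of all genes called alike in both was not computed, and the IL21R call after PMA was near the threshold (limma adjusted p = 0.0496). The cHL difference of IL2RG was 1.29 ± 0.20 and that of IL4R was 3.02 ± 0.18. IL3RA, IL9R, CSF2RA and CRLF2, 4 of the 36 receptors, were listed at 0 in each of the 12 libraries. These genes lie in the pseudoautosomal regions that the sex chromosomes share. How reads that match both copies were handled is not given in the sources used here, so the zeros cannot be read as absence of expression.

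Downstream, 29 genes known as STAT targets were listed, SOCS1 and SOCS3 among them, and 27 were tested. CISH, SOCS2, CD274, PDCD1LG2, IL2RA, CCL17, BCL6 and OSM also belong to other lists used here, so the counts of the lists are not separate. In cHL 19 were higher and 2 lower, with a median of 1.53, against 13.7% and 10.9% called and a median of 0.02 over all genes. Because the list was chosen with earlier results known, these counts describe it and do not test STAT activity. CCND2, encoding cyclin D2, was higher by 6.30 ± 0.22, at 62.5 to 247 FPKM in cHL and at most 1.57 FPKM in the controls. CCL17 (TARC), a chemokine induced by STAT6, was higher by 6.12 ± 0.39 and ranged from 12.6 FPKM in KM-H2 to 705 FPKM in L428. BATF, an AP-1 family factor, was higher by 5.80 ± 0.24. BCL6 and MYC fell by 2.54 and 1.78, and each cHL library lay below each control library for both. After PMA 7 of the 27 targets rose and 4 fell, with 10.5% and 11.8% over all genes. FOS, JUNB and BATF rose by 4.70, 3.34 and 3.45. The AP-1 genes FOS and JUNB are also known to respond to protein kinase C, and the part of that route here was not tested. MYC, SOCS2, IRF1 and GBP1 fell.

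**Figure D4:**
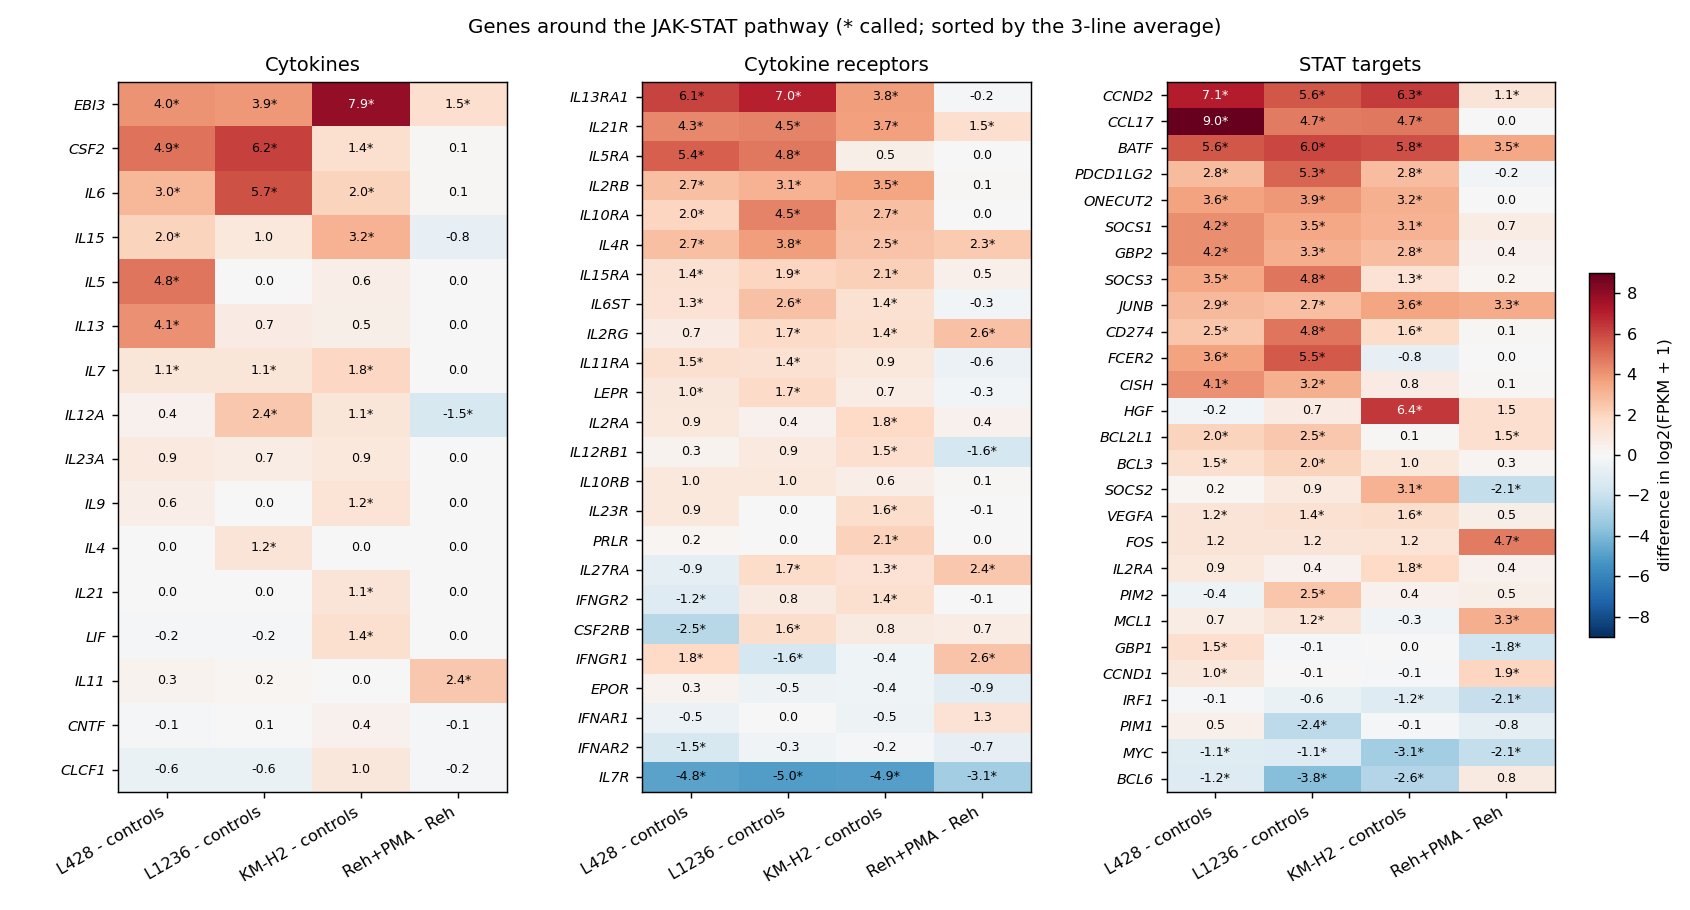
Differences in log2(FPKM + 1) for the tested cytokine, cytokine receptor and STAT target genes in each cHL line against the untreated controls and in Reh+PMA against Reh; red is higher, blue is lower and an asterisk marks a call. In the 3 cHL columns IL13RA1, IL21R, CCND2 and BATF are called higher in each line, whereas IL5, IL13 and IL5RA are called in some lines and not in others.

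JAK2 lies at chr9:4984390-5129948 on the plus strand of GRCh37, in band 9p24, and its neighbours were examined as a group. Of 18 neighbouring genes 14 were tested, and in cHL 7 were higher and 0 lower, with a median of 0.94, against 13.7% and 10.9% called over all genes. CD274 and PDCD1LG2, which encode the PD-1 ligands PD-L1 and PD-L2, were higher by 2.98 ± 0.16 and 3.63 ± 0.21. PLGRKT, a plasminogen receptor gene next to them, was higher by 2.41 ± 0.26. CD274 measured 29.9 and 33.1 FPKM in L1236, 3.74 and 7.28 FPKM in L428 and 2.48 and 2.63 FPKM in KM-H2, against at most 0.232 FPKM in the controls. L1236 was the highest line for JAK2, CD274 and PDCD1LG2. KM-H2, in which JAK2 was not called with 1 added, was called higher in CD274, PDCD1LG2 and PLGRKT, by 1.64, 2.77 and 2.36. The number of these 14 neighbours called higher was 8 in L1236, 6 in L428, with 1 lower, and 5 in KM-H2, where 15.7%, 16.2% and 16.8% of all genes were called higher and 13.3%, 13.8% and 13.5% lower. Reh+PMA gave 0 higher and 2 lower, UHRF2 by -1.36 and AK3 by -1.11, with 10.5% and 11.8% over all genes. INSL6, named after its values were seen because it overlaps the end of JAK2 on the opposite strand, measured 7.42 and 4.94 FPKM in KM-H2 and at most 0.201 FPKM in the other 10 libraries.

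**Figure D5:**
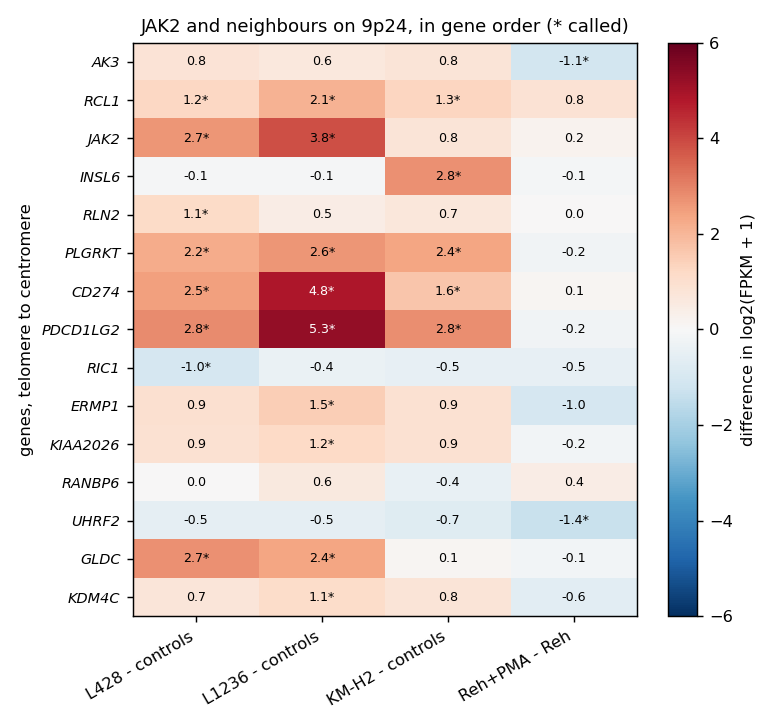
Differences in log2(FPKM + 1) between each cHL line and the untreated controls and between Reh+PMA and Reh, for JAK2 and the tested genes around it, placed in chromosomal order; an asterisk marks a call. L1236 has 8 neighbours called higher, L428 has 6 and KM-H2 has 5, with PLGRKT, CD274 and PDCD1LG2 called in all 3 lines.

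Across the 12 libraries the 9 genes did not share a single pattern. On the log2 scale, JAK2 and SOCS3 had a Pearson r of 0.94, STAT5A and SOCS1 of 0.92, and STAT3 and PTPN1 of 0.85, while JAK1 and PTPN1 had -0.31. These are descriptions over 12 libraries from 5 lines, in which the 2 libraries of a condition share their cells. Among 12585 tested genes whose condition means spanned at least 1 log2 unit, the nearest to STAT5A were COL9A2 (0.988), NRP2 (0.987) and CERCAM (0.981), given as Pearson r over the 12 libraries. The nearest to SOCS1 were MARCKS (0.984), TNFRSF8 (0.983), which encodes the HRS cell antigen CD30, and SLC22A4 (0.980). SOCS3 lay nearest to CSF2 (0.987), RAB38 (0.987) and LOC541472 (0.985). For JAK2 the nearest genes were CPOX (0.972), IFI35 (0.968) and NKRF (0.958). STAT3 was matched by TMEM30A (0.973), SLC30A7 (0.955) and CCDC155 (0.950), and STAT6 by C10orf128 (0.964), COX11 (0.959) and ADRA2C (0.952). JAK1 was nearest to CTSH (0.966), FAM89A (0.940) and SCYL3 (0.936). JAK3 was nearest to AMPD3 (0.947), PCNX (0.932) and ITPKA (0.928), and PTPN1 to UPRT (0.935), DDRGK1 (0.933) and ARPC2 (0.930).

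Reading the levels as an order of conditions, 11 of the 45 steps between neighbours were called, against 8.43% of such steps over all genes. For JAK1, STAT3 and PTPN1 no step was called, so their levels descended in steps each short of the fold or the p required, although the extremes differed. SOCS1 and SOCS3 had their lowest values outside cHL, with a called step of 2.55 from KM-H2 down to Namalwa for SOCS1 and a step of 0.91 that was not called from KM-H2 down to Reh+PMA for SOCS3. STAT5A had called steps of 1.35 from L428 to KM-H2, 2.31 from L1236 to Reh and 1.02 from Reh to Namalwa. Taken as Namalwa minus Reh, the last was not called under quantile normalization (-0.76) or with 5 added before the logarithm (-0.48). JAK3 had a called step of 1.15 from KM-H2 to Reh+PMA, and STAT6 one of 1.65 from L1236 to L428.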

How the data were processed

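Total-RNA libraries (stranded, ribosomal RNA depleted) of 5 cell lines and of PMA-treated Reh cells were analysed, 2 per condition. Per the submitters' processing notes, which name tools without roles, TopHat2 2.0.11, Cuffnorm 2.2.1, bedtools and hg19 were used, and the authors deposited 1 table of FPKM values per gene. FPKM is scaled by transcript length and library, so depth is unknown, no counting error can be given, and a gene at 0 is only listed at 0. The header numbers the 2 libraries of each group 0 and 1, and these numbers could not be tied to the replicate numbers of the labels, so columns were mapped to groups alone.

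Genes with at least 1 FPKM in at least 2 of 12 libraries were tested on log2(FPKM + 1) with limma 3.58.1 (R 4.3.3, eBayes with trend) in 1 fit of 6 group means, with Benjamini-Hochberg adjustment over all genes tested, and over genes and 15 pairs for pairwise tests. Calls needed an adjusted p below 0.05 and a log2 difference of at least 1. The fit was tested on simulated data. Line means were compared by exact permutation (scipy 1.17.1). From each gene list the text names up to 3 called genes per direction with the largest difference, the other JAK and STAT genes examined, all genes where 5 or fewer were called in a list, and the 3 most alike genes per member. One gene of the pathway lists is not reported here. The members and lists were chosen with earlier results of these data known. Lists are described by counts and medians. Positions come from GENCODE v44 lifted to GRCh37, the assembly of hg19. Alternatives tried were other pseudocounts, filters and scalings, no trend, a replicate block, leaving out libraries or lines, single controls, 4-library fits and library weights, the last added after seeing the data.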

Additional observations from a re-analysis of the deposited data

Results flagged for a closer look

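The differences of the 3 cHL lines from the shared controls were compared with one another, and 17 of the 27 tests passed the thresholds, as did 25.3% of such tests over all genes (limma, adjusted over genes and 15 pairs). Values are differences in log2(FPKM + 1). L1236 exceeded L428 in JAK2 by 1.19, STAT6 by 1.65 and SOCS3 by 1.31, and differed from it by -1.71 in STAT3, -1.72 in STAT5A and -1.04 in PTPN1. KM-H2 exceeded L428 in JAK1 by 1.16 and JAK3 by 2.47, and differed from it by -1.89 in JAK2, -2.05 in STAT3, -1.35 in STAT5A, -2.19 in SOCS3 and -1.95 in PTPN1. KM-H2 exceeded L1236 in JAK3 by 1.66 and differed from it by -3.07 in JAK2, -2.56 in STAT6 and -3.50 in SOCS3. SOCS1 was absent from these calls, with differences of -0.71, -1.07 and -0.36 for the same pairs. Of these, -1.07 passed the fold but not the p required (limma adjusted p = 0.058). With 2 libraries per condition, no library could be checked as an outlier within its group.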

How the results depend on the processing

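In cHL against controls all 9 genes kept their direction under the alternatives tried, and the number called stayed between 5 and 7. Adding 5 instead of 1 FPKM before the logarithm lowered the genes called from 3614 to 1622 for cHL, 3265 to 1694 for PMA, 4404 to 2253 for L428, 4251 to 2122 for L1236, 4456 to 2104 for KM-H2 and 2792 to 1292 for Namalwa against Reh, and the members called to 2 after PMA and 0 for Namalwa. In Namalwa against Reh 4 members were called with 0.1 added, 1 under quantile normalization, 0 in a fit of those 4 libraries alone, and 1 to 2 when single libraries were left out. Leaving out single libraries gave 2082 to 3363 genes called after PMA, with 2168 without Reh library 0 and 2082 without Reh+PMA library 0. STAT6 after PMA, 0.18, turned to -0.036 under quantile normalization and to -0.076 at the lowest of 4 omissions, the highest being 0.43. STAT3 in Namalwa against Reh, 0.01, turned to -0.041 under median centring and ranged from -0.10 to 0.12 without single libraries (-0.045 without Namalwa library 0). The causes were not tested. Differences between libraries 1 and 0 correlated at 0.30 to 0.68 among the cHL lines, at 0.36 for Reh and Namalwa and at -0.04 to 0.19 for the other pairs of groups, so the header number went with shared deviations in some groups and did not pair all of them. With this number as a replicate block 2024 genes were called higher and 1619 lower in cHL and 1605 and 1851 after PMA, and of the 9 genes only SOCS1 in Namalwa against Reh changed its call, at 1.09. Library weights gave the same change and no other. Low genes such as SOCS3 in Reh are limited by the unknown depth.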

Other observations

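The chromosomal neighbours of SOCS1 and PTPN1 were examined in the same way as those of JAK2. Of 13 genes around SOCS1 on 16p13, 9 were tested and in cHL 2 were higher and 1 lower, with a median of 0.31 and with 13.7% and 10.9% called over all genes. LITAF, a regulator of inflammatory cytokine genes, was higher by 1.71 ± 0.17 and reached 102 and 85.7 FPKM in KM-H2. CLEC16A, a regulator of mitophagy, was higher by 1.18 ± 0.12, and SNN fell by 1.5. After PMA, RMI2 fell by 1.80 and CIITA, the master activator of MHC class II genes, by 1.58. Around PTPN1 on 20q13, 13 of 14 genes were tested and in cHL SPATA2 was higher by 1.12 ± 0.18 and BCAS4 fell by 1.45, with a median of 0.07 and the same shares over all genes. SPATA2 measured 24.8 and 19.9 FPKM in L1236, while L428 and KM-H2 overlapped Namalwa. After PMA, SNAI1 rose by 1.69 ± 0.27 and BCAS4 fell by 1.53.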
